A study of Mus musculus with 36 samples.

Results

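The genes described are the amino acid transporter families of mouse liver, taken as every row of the deposited count table whose symbol is Slc1a, Slc3a, Slc6a, Slc7a, Slc36a, Slc38a or Slc43a followed by a number. This gave 59 of 38283 genes, after 1 matching name for an opposite-strand gene (Slc7a6os) was left out. They comprised 7 genes of Slc1, 2 of Slc3, 17 of Slc6, 15 of Slc7, 4 of Slc36, 11 of Slc38 and 3 of Slc43. The rule reads symbols alone and uses no measured value, but it was set with earlier results of these data known. Livers came from 36 male C57Bl/6J mice aged 16 weeks and kept on chow, in 6 groups of 6. Wild-type mice and mice heterozygous for the Pik3r1 allele labelled PIK3R1(Y657X) (Y657 mice) were killed with chow freely available (fed), after a fast of 16 h (fasted), or after the same fast and 6 h of refeeding with chow (refed). The allele is a knock-in at the mouse gene of a truncation found in human SHORT syndrome, is present in every tissue, and leaves a wild-type copy of the gene for the p85 alpha regulatory subunit of phosphoinositide 3-kinase. The design asked how genotype affects the liver in each feeding state and how each genotype responds to fasting and to refeeding.

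Amino acids cross the plasma membrane and the membranes of lysosomes through carriers that either couple them to sodium or protons, exchange one amino acid for another, or let them pass down their gradient. Liver takes up alanine, glutamine and other amino acids from portal blood for protein synthesis, gluconeogenesis and ureagenesis, and releases glutamine made around the central veins. The Slc38 family holds the sodium-coupled system A and system N carriers. Slc7 holds the cationic amino acid carriers and the light chains of heteromeric exchangers, whose heavy chains are Slc3a1 and Slc3a2. Slc1 carries glutamate and small neutral amino acids, and Slc6 carries taurine, creatine, betaine, glycine and other substrates with sodium and chloride. Slc36 holds proton-coupled carriers, some of them lysosomal, and Slc43 holds facilitative carriers. Some members are best known for other substrates, such as Slc6a8 for creatine and Slc43a3 for purine nucleobases, and they were kept because the families were taken whole.

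Upstream sequence is shown for 4 members chosen after their values were seen, the one with the highest level (Slc38a4), the one with the smallest adjusted p for refeeding (Slc36a1), and the pair whose refeeding response was called different between genotypes (Slc7a11 and Slc38a6). RefSeq starts on GRCm38.p6 were given for 41 of the 59 members, and the 250 bases before each start were searched on both strands. Slc38a4 is read from chr15:97055957-97056206 on the minus strand, Slc36a1 from chr11:55204090-55204339 on the plus strand, Slc7a11 from chr3:50443615-50443863 on the minus strand and Slc38a6 from chr12:73286598-73286778 on the plus strand. Bases that a GENCODE M21 exon of the same gene covers are left off. Each is written 5′ to 3′ along the gene, and capitals mark a matched motif.
Slc38a4: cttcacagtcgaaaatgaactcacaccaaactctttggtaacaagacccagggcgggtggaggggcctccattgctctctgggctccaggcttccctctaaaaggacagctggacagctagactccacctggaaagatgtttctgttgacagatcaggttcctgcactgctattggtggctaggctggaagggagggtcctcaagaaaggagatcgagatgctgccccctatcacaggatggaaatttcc
Slc36a1: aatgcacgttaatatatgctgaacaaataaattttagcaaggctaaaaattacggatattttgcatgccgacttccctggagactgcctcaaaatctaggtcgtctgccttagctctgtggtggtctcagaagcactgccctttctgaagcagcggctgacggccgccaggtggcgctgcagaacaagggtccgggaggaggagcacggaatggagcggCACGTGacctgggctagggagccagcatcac
Slc7a11: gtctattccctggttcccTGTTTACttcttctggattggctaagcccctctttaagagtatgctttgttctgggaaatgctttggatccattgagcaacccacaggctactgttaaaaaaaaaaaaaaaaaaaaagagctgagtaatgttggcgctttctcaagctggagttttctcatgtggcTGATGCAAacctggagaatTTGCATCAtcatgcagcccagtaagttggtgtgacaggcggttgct
Slc38a6: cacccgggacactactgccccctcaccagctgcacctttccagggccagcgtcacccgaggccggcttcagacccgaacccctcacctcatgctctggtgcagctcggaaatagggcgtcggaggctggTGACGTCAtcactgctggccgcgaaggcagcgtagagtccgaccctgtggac

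The Slc7a11 stretch held the response element of ATF4 and C/EBP (TGATGCAA) on both strands, starting 66 and 47 bases before the RefSeq start, and a forkhead motif (TGTTTAC) at 232 bases. Slc36a1 held an E-box (CACGTG) at 31 bases and Slc38a6 a cAMP response element (TGACGTCA) at 121 bases. All distances are counted from the RefSeq start, which for Slc38a6 lies downstream of the end of the stretch shown. None of these motifs was found in the Slc38a4 window. In the windows of all 32851 RefSeq starts, the ATF4 and C/EBP element was present in 0.791%, the cAMP response element in 1.55%, the E-box in 6.02% and the forkhead motif in 3.17%. Among the 62 starts of members, they were present in 2, 1, 8 and 2 windows, and the other start with an ATF4 and C/EBP element belonged to Slc7a7.

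The libraries held 8839488 to 19542775 counts each, with a median of 13596665.5. Counts of Pik3r1 sum the reads of both alleles and so do not check the genotype, with group means between 93.3 and 148 CPM, the count of a gene scaled to its TMM-adjusted library size. Hepatocyte markers summed to between 49952 and 91614 CPM in every mouse, against 171 to 633 for 6 Kupffer cell markers. Of the 59 members, 35 passed the filter on low counts and were tested among 13945 genes by edgeR's quasi-likelihood test, and all adjusted p-values come from it with Benjamini-Hochberg adjustment over those genes. A member is said to be called, to rise or to fall where its adjusted p was under 0.05. In bulk RNA a change in level cannot be told apart from a change in the number of cells that express the gene.

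**Figure D1:**
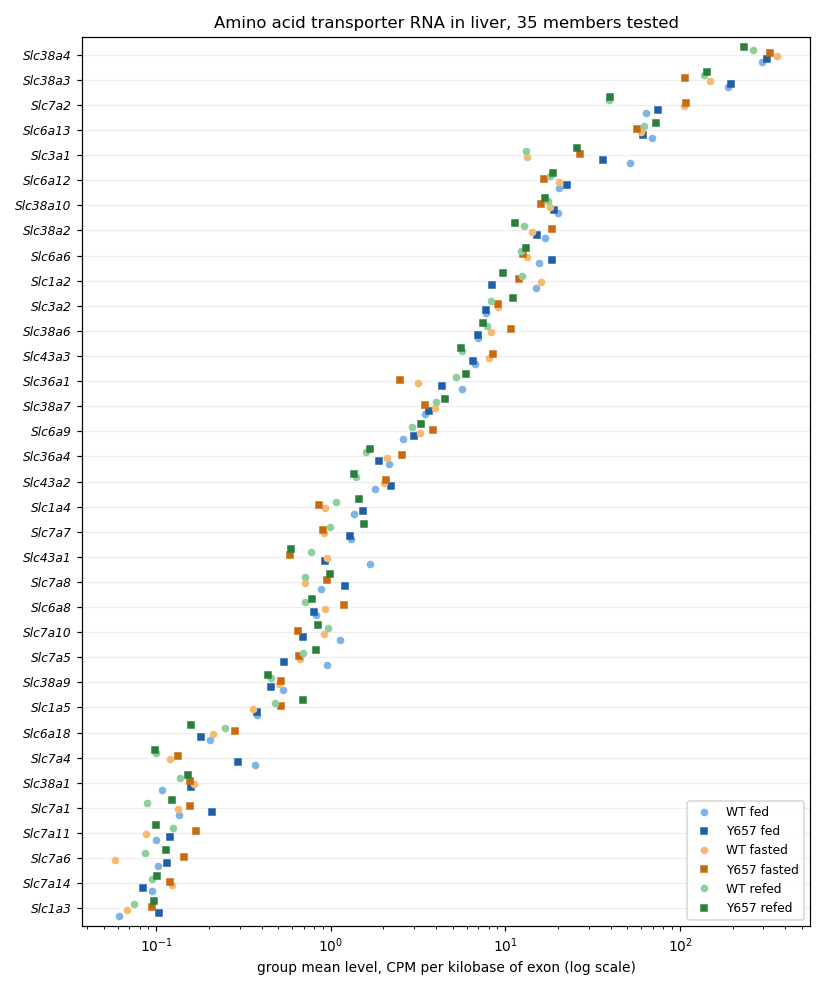
Group mean level of each of the 35 tested members in CPM per kilobase of exon on a log axis, ordered by the mean over 36 mice, with circles for wild-type and squares for Y657 mice (n = 6 mice per point). The order runs from Slc38a4 with a mean of 300 down to Slc1a3 with 0.0831.

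Sodium-coupled carriers of neutral amino acids had the highest levels. Per kilobase of exon, Slc38a4, a system A carrier, was highest with a mean of 300 CPM per kilobase over the 36 mice, and was above Slc38a3, the next, in 36 of 36 mice. Slc38a3, the system N carrier of glutamine and histidine, had 153, and was above Slc7a2 in 33 of 36 mice. Slc7a2, a carrier of arginine and lysine, had 71.7 and Slc6a13, a carrier of GABA and taurine, 63.7, and their order held in only 20 of 36 mice. Slc3a1, the heavy chain rBAT, followed with 27.7, then Slc6a12 (the betaine carrier) with 19.4, Slc38a10 with 17.8, Slc38a2 with 14.8, Slc6a6 (the taurine carrier) with 14.2 and Slc1a2 (the glutamate carrier GLT-1) with 12.2. Among these neighbours Slc3a1 exceeded Slc6a12 in 19 mice, Slc38a2 exceeded Slc6a6 in 20 and Slc6a6 exceeded Slc1a2 in 21, so those orders did not hold beyond the spread between mice. Slc38a4 lay in the top 1.12% of tested genes on this scale, Slc38a3 in the top 2.02% and Slc7a2 in the top 4.17%. The 11 Slc38 genes made up a median of 67.6% of the summed level of all members, with a range of 60.1% to 71% over mice, followed by the 17 Slc6 genes with 13.4% and the 15 Slc7 genes with 9.25%.

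The heavy chain Slc3a1 and its best-known light chain were far apart. Slc7a9, the partner of rBAT in kidney and gut, had 10 counts in all 36 libraries together, against 30618 for Slc3a1. For the other heavy chain, Slc3a2 (4F2hc, 8.81 CPM per kilobase), the light chains were all lower. Slc7a7 had 1.15, Slc7a8 had 0.905, Slc7a10 had 0.864, Slc7a5 had 0.721, Slc7a11 had 0.116 and Slc7a6 had 0.103 CPM per kilobase.

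The 24 members that did not pass the filter had group means of at most 0.507 CPM. In Slc1 they were the glutamate carriers Slc1a1, Slc1a6 and Slc1a7, with highest group means of 0.288, 0.0774 and 0.444 CPM. In Slc6 they included genes mostly known from brain, gut or kidney, among them Slc6a2, Slc6a3, Slc6a4, Slc6a5, Slc6a7, Slc6a11, Slc6a14, Slc6a15, Slc6a17 and Slc6a19, and Slc6a4 was highest at 0.507 CPM in refed Y657 mice. In Slc7 they were Slc7a3, Slc7a9, Slc7a12, Slc7a13 and Slc7a15, with Slc7a15 highest at 0.36 CPM. In the remaining families they were Slc36a2, Slc36a3, Slc38a5, Slc38a8 and Slc38a11, with Slc38a11 highest at 0.392 CPM. Slc6a11, Slc6a15 and Slc7a12 had no count in any library, which allows a level of up to 0.0062 CPM over all libraries from 3 counts and covers counting error only.

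Calls on fasting fell in 6 of the 7 families in wild-type mice and in all 7 but Slc3 in Y657 mice. No such count by family was made for all genes, whose shares called are given beside those of the members. In wild-type mice 11 of 35 tested members were called (31.4%), 4 higher and 7 lower, where 32% of all genes were called, 14.5% higher and 17.5% lower. In Y657 mice 14 were called (40%), 6 higher and 8 lower, where 32.9% of all genes were called, 15.2% higher and 17.7% lower. The median log2 fold change of the members was -0.04 in wild-type and -0.03 in Y657 mice, beside 0.010 and -0.008 over all genes. The members called in both genotypes numbered 8, all in the same direction: Slc7a2, Slc38a6 and Slc43a3 rose, and Slc36a1, Slc38a3, Slc6a6, Slc43a1 and Slc7a4 fell. On fasting in wild-type mice, 3 of 6 endothelial and 2 of 4 lymphocyte markers rose, 2 of 6 stellate cell markers fell, and of 6 hepatocyte markers 1 rose and 3 fell. In Y657 mice 3 of 6 stellate cell markers fell and 1 of 6 hepatocyte markers rose. In each genotype 1 of 5 cholangiocyte markers, 1 of 5 erythroid markers and the 1 tested acinar pancreas marker also fell. The part of all these markers in the results was not tested.

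Refeeding called 6 members in wild-type mice (17.1%), of which 1 was higher and 5 lower, where 30.2% of all genes were called, 16.5% higher and 13.7% lower. In Y657 mice 16 were called (45.7%), 6 higher and 10 lower, where 31.3% of all genes were called, 17.1% higher and 14.2% lower. All 6 of the wild-type calls were also called in Y657 mice in the same direction: Slc36a1 rose, and Slc7a2, Slc38a4, Slc43a2, Slc43a3 and Slc36a4 fell. Of the other 10 calls in Y657 mice, the difference between genotypes was itself called for 2 (Slc7a11 and Slc38a6). Endothelial markers fell too on refeeding, 3 of 6 in wild-type and 4 of 6 in Y657 mice, as did 2 of 6 and 1 of 6 hepatocyte markers. In each genotype 1 of 6 stellate cell markers rose and 1 fell, and 1 of 5 erythroid markers fell. The part of these markers in the results was not tested. Refed mice were also compared with fed mice. In wild-type mice 9 members were called, none higher and 9 lower, where 27.5% of all genes were called, 13.2% higher and 14.3% lower. In Y657 mice 12 were called, 5 higher and 7 lower, where 26.1% of all genes were called, 13% higher and 13.1% lower. In refed against fed mice 4 of 6 stellate cell markers and 3 of 6 hepatocyte markers fell as well in each genotype. In each, 1 of 5 erythroid markers and the 1 tested acinar pancreas marker also fell, and 1 of 6 Kupffer cell markers rose. Of 6 endothelial markers, 1 rose and 1 fell in wild-type mice and 2 fell in Y657 mice. In wild-type mice 2 of 5 cholangiocyte markers fell, and in Y657 mice 1 of 4 lymphocyte markers. The part of all these markers was not tested. The fasting, refeeding and refed-against-fed comparisons of 1 genotype share groups, so their values are given side by side and are not independent. Mice are named by their labels, in which ALC marks fed, ONF fasted and RF6 refed mice and MT the Y657 genotype. The numbers in these names fall in a middle series for fed mice and in a lower and a higher series for fasted and refed mice, so differences from fed mice cannot be told apart from differences between number series.

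**Figure D2:**
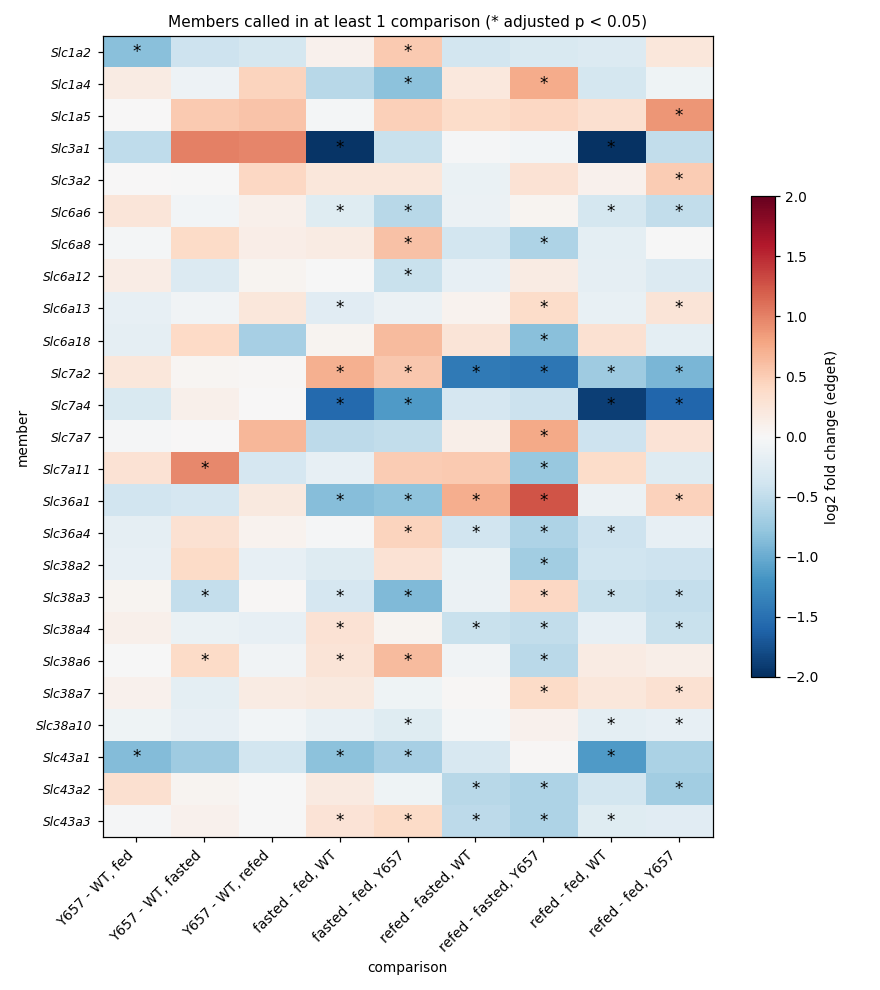
Log2 fold change (colour) of the 25 members called in at least 1 comparison, by comparison, with an asterisk where the adjusted p was under 0.05 (n = 6 mice per group). Slc7a2 is red on fasting and blue on refeeding, Slc36a1 is blue on fasting and red on refeeding, and the refed genotype column holds no asterisk.

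Of the cationic carriers, Slc7a2 was called in all 6 comparisons of feeding states. In fed wild-type mice it was at 478 to 718 CPM with a median of 578, and in fasted wild-type mice at 737 to 1302 with a median of 926, so the groups did not overlap. In refed wild-type mice it was at 254 to 430 with a median of 362, below every fed and every fasted mouse. In Y657 mice the fed range was 409 to 876 (median 695), the fasted range 761 to 1383 (median 967) and the refed range 227 to 548 (median 325). Fasting raised it by a log2 fold change of 0.71 in wild-type mice (SE 0.20, adjusted p = 0.00658) and 0.54 in Y657 mice (SE 0.20, adjusted p = 0.04). The Y657 call was lost without any of 7 of the 12 mice, that is all but ALC_MT_866, ALC_MT_868, ALC_MT_869, ONF_MT_826 and ONF_MT_921 (0.41 to 0.55 then, adjusted p up to 0.128). Refeeding lowered it 2.68-fold in wild-type mice (log2 -1.42, SE 0.21, adjusted p = 2.3e-06) and 2.72-fold in Y657 mice (log2 -1.44, SE 0.21, adjusted p = 1.7e-06). Within the lower- and the higher-numbered series (3 against 3 mice, log2 of CPM plus 0.5) the refeeding differences were -1.11 and -1.72 in wild-type and -1.57 and -1.43 in Y657 mice. Against fed mice the refed level was lower by log2 -0.71 (adjusted p = 0.00882) and -0.91 (adjusted p = 0.00111). Slc7a2 shares exon bases with a gene on the opposite strand, Gm26584, and as the strand setting of the counting is not given in the sources used here its counts may include reads of that gene.

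The related Slc7a1, the cationic carrier of most other tissues, was at group means of 1.02 to 2.39 CPM and was not called in any comparison. Slc7a4, a CAT-like protein of unclear substrate, was under 1 CPM over all mice and lay lower in fasted and refed than in fed mice. In wild-type mice its fed range was 0.934 to 2.45 CPM, its fasted range 0.233 to 0.842 and its refed range 0.0862 to 0.824. The fall on fasting was called in both genotypes (log2 -1.55 in wild-type mice, adjusted p = 0.0037, and -1.14 in Y657 mice, adjusted p = 0.0312). Its exons overlap P2rx6 on the opposite strand, and the dependence of its calls on single mice is not reported here. Slc7a14 was not called and reached a group mean of 1.21 CPM.

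Slc36a1, the proton-coupled carrier of small neutral amino acids on lysosomes and the plasma membrane, moved the other way, and its refeeding response in Y657 mice had the smallest adjusted p of any member. In wild-type mice it was at 26.7 to 36.6 CPM when fed (median 31.4), 15.3 to 19.7 when fasted (median 18) and 27.4 to 31.9 when refed (median 28.5). In Y657 mice it was at 17 to 34 when fed (median 23.1), 11.5 to 15.7 when fasted (median 14.8) and 27.5 to 37.2 when refed (median 34.2). The fasted mice lay below every fed and every refed mouse of their genotype. Fasting lowered it by log2 -0.85 in wild-type mice (SE 0.12, adjusted p = 1.1e-06) and -0.80 in Y657 mice (SE 0.13, adjusted p = 4.7e-06). Refeeding raised it 1.66-fold in wild-type mice (log2 0.73, SE 0.12, adjusted p = 1.7e-05) and 2.39-fold in Y657 mice (log2 1.26, SE 0.13, adjusted p = 7.4e-10). Within the lower- and higher-numbered series the refeeding differences were 0.66 and 0.78 in wild-type and 1.26 and 1.20 in Y657 mice. The difference between these 2 refeeding responses was 0.53 (SE 0.17, adjusted p = 0.109 by edgeR) and was not called. Refed Y657 mice lay above fed ones by log2 0.46 (adjusted p = 0.004), a call lost with only these groups in the fit (adjusted p = 0.0602).

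Its relative Slc36a4, a high-affinity carrier of proline and tryptophan, had a value of -0.03 on fasting in wild-type mice, which was not called, and fell on refeeding. Its wild-type median went from 13.4 CPM after the fast to 10.3 after refeeding, and its Y657 median from 15.8 to 10.5, with overlapping ranges. Refeeding lowered it by log2 -0.39 in wild-type mice (adjusted p = 0.042) and -0.62 in Y657 mice (SE 0.15, adjusted p = 0.00105). The wild-type call was lost without any of 8 of the 12 mice, that is all but ONF_WT_918, ONF_WT_919, RF6_WT_816 and RF6_WT_900 (-0.40 to -0.35 then, adjusted p up to 0.0907). Its rise on fasting in Y657 mice (0.45, adjusted p = 0.0144) was lost without ONF_MT_827 (0.30, adjusted p = 0.0955). It was also lower in refed than in fed wild-type mice (-0.42, adjusted p = 0.0297), a call lost without ALC_WT_847, ALC_WT_848, ALC_WT_849, RF6_WT_815, RF6_WT_896 or RF6_WT_901 (-0.41 to -0.37 then, adjusted p up to 0.0743).

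In the Slc38 family the 2 most abundant members differed in their response. Slc38a4 was at 1118 to 1416 CPM in fed wild-type mice (median 1214), 1301 to 1749 in fasted (median 1536) and 1020 to 1227 in refed ones (median 1100). In Y657 mice the ranges were 1149 to 1706 (median 1310), 1215 to 1709 (median 1341) and 912 to 1132 (median 975). It rose on fasting in wild-type mice (0.29, SE 0.09, adjusted p = 0.0163), a call lost without ONF_WT_920 (0.25, adjusted p = 0.0527), while in Y657 mice the value was 0.06. Refeeding lowered it in both, by log2 -0.45 (adjusted p = 2.7e-04) and -0.49 (adjusted p = 8.7e-05), with no overlap between refed and fasted mice of either genotype. Within the number series the refeeding differences lay between -0.55 and -0.34. Refed Y657 mice also lay below every fed Y657 mouse (-0.44, adjusted p = 5.9e-04).

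Slc38a3 fell on fasting. It was at 870 to 1114 CPM in fed (median 1004) and 591 to 994 in fasted wild-type mice (median 808), and at 1034 ± 108 (SD, n = 6) in fed and 564 ± 105 (SD, n = 6) in fasted Y657 mice. The fed and fasted groups overlapped in wild-type mice and did not in Y657 mice. The log2 fold change was -0.34 in wild-type mice (SE 0.13, adjusted p = 0.0422) and -0.88 in Y657 mice (SE 0.13, adjusted p = 2.0e-06). The wild-type call was lost without ALC_WT_847, ALC_WT_848, ALC_WT_860, ONF_WT_807, ONF_WT_824 or ONF_WT_825 (-0.32 to -0.27 then, adjusted p up to 0.122). The 3 lower-numbered fasted wild-type mice (ONF_WT_807, ONF_WT_824 and ONF_WT_825) lay at 591, 615 and 725 CPM against 891 to 994 in the 3 higher-numbered ones. On refeeding, the wild-type difference was 0.24 within the lower and -0.41 within the higher series, and the Y657 difference 0.53 and 0.27. The difference between the genotypes' fasting responses was -0.54 (SE 0.18), with an adjusted p of 0.0877. After refeeding its median was 732 CPM in wild-type and 720 in Y657 mice. It rose on refeeding in Y657 mice (0.41, SE 0.13, adjusted p = 0.0149), a call lost without ONF_MT_806 (0.33, adjusted p = 0.054) or RF6_MT_810 (0.30, adjusted p = 0.0724), and stayed below the fed level in both genotypes (-0.45, adjusted p = 0.00904, and -0.47, adjusted p = 0.00701).

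The remaining Slc38 members were less abundant. Slc38a2, the system A carrier that many cells induce when amino acids are scarce, was at 121 to 196 CPM in fasted and 86.1 to 121 in refed Y657 mice, without overlap, and fell by log2 -0.69 (SE 0.16, adjusted p = 0.00119). In wild-type mice the refeeding value was -0.14. Slc38a7, a lysosomal glutamine carrier, rose on refeeding in Y657 mice, whose fasted range of 12 to 15.8 CPM ended just under the refed range of 15.8 to 22.5 (0.38, SE 0.12, adjusted p = 0.0113), and was higher in refed than in fed Y657 mice (0.30, adjusted p = 0.049). The second of these calls was lost without any of 7 of the 12 mice, that is all but ALC_MT_866, ALC_MT_869, RF6_MT_814, RF6_MT_817 and RF6_MT_899 (0.24 to 0.31 then, adjusted p up to 0.129), and by DESeq2 (adjusted p = 0.0575). Slc38a10 was called lower in fasted than in fed Y657 mice (-0.24, adjusted p = 0.00248) and in refed than in fed wild-type mice (-0.19, adjusted p = 0.0174), the second call lost without RF6_WT_816 (-0.17, adjusted p = 0.0507). It was also lower in refed than in fed Y657 mice (-0.17, adjusted p = 0.0425), a call lost without any of 9 of the 12 mice, that is all but ALC_MT_866, ALC_MT_869 and RF6_MT_898 (-0.18 to -0.13 then, adjusted p up to 0.137). Exon bases of Slc38a10 overlap Gm11769 on the opposite strand. Slc38a1, a system A carrier, and Slc38a9, the lysosomal arginine sensor of mTORC1, were not called and had highest group means of 2.84 and 8.88 CPM.

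**Figure D3:**
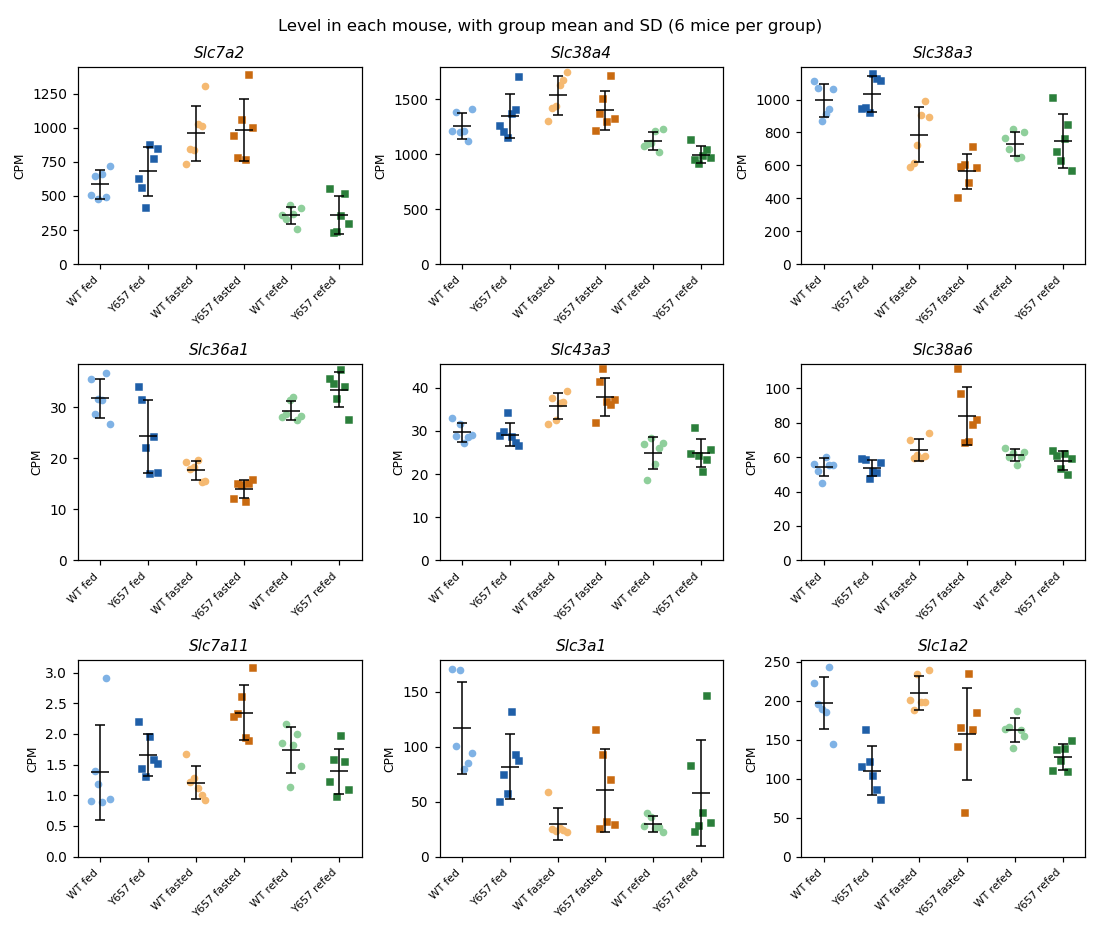
CPM of 9 members in each of the 36 mice by group on linear axes that start at 0, with circles for wild-type and squares for Y657 mice, and black marks for the group mean and SD (n = 6). The fasted mice lie below the fed and refed mice of their genotype for Slc36a1, the refed mice lie below the fasted mice of their genotype for Slc7a2, and Slc3a1 is spread from 25.5 to 115 CPM within the fasted Y657 group.

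Of the heavy chains, Slc3a1 showed the largest fold change of the members with at least 1 CPM. In wild-type mice it was at 79.9 to 171 CPM when fed (median 97.6), 22.1 to 59.1 when fasted (median 24.6) and 22.1 to 40.1 when refed (median 27.1), so that every fed mouse lay above every fasted and refed one. It fell 3.88-fold on fasting (log2 -1.96, SE 0.42, adjusted p = 5.8e-04), and refed wild-type mice stayed below fed ones by log2 -1.98 (SE 0.42, adjusted p = 7.2e-04). Both calls held without each mouse in turn. In Y657 mice the ranges overlapped, at 49.7 to 132 when fed (median 80.8), 25.5 to 115 when fasted (median 50.4) and 22.6 to 146 when refed (median 35.1), and the fasting value was -0.44 (adjusted p = 0.443). The difference between the fasting responses was 1.52 (SE 0.58, adjusted p = 0.132 by edgeR) and was not called. Slc3a1 shares exon bases with Prepl on the opposite strand. The other heavy chain, Slc3a2, was called only in refed against fed Y657 mice, at 27.5 to 54.6 CPM against 23.4 to 31.1 (0.50, SE 0.12, adjusted p = 0.00247).

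Among the light chains, Slc7a7 (the cationic and neutral exchanger y+LAT1) rose on refeeding in Y657 mice from a median of 2.9 to 4.65 CPM (0.76, SE 0.28, adjusted p = 0.0341). This call was lost without ONF_MT_921, ONF_MT_922, ONF_MT_923, RF6_MT_810 or RF6_MT_898 (0.49 to 0.76 then, adjusted p up to 0.176), the lowest value without RF6_MT_898, whose level was the highest. Slc7a7 shares exon bases with Oxa1l on the opposite strand. Slc7a5, Slc7a6, Slc7a8 and Slc7a10 were not called in any comparison, with highest group means of 3.54, 0.653, 5.99 and 2.39 CPM. The light chain Slc7a11 is described with the genotype comparisons.

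In the Slc1 family, the neutral exchanger Slc1a4 (ASCT1) was at a median of 5.42 CPM in fed, 2.66 in fasted and 4.83 in refed Y657 mice. Its fall on fasting (-0.82, SE 0.28, adjusted p = 0.0205) was lost without ONF_MT_806 (-0.73, adjusted p = 0.0563) or ALC_MT_868 (-0.69, adjusted p = 0.0634). Its rise on refeeding (0.74, SE 0.28, adjusted p = 0.0389) was lost without any of 7 of the 12 mice, that is all but ONF_MT_827, RF6_MT_814, RF6_MT_817, RF6_MT_897 and RF6_MT_899 (0.48 to 0.74 then, adjusted p up to 0.185), and was 0.48 without RF6_MT_898. Slc1a5 (ASCT2), the glutamine exchanger of growing cells, was at a median of 2.96 CPM in refed and 1.32 in fed Y657 mice (0.89, SE 0.31, adjusted p = 0.0306), a call lost without any of 7 of the 12 mice, that is all but ALC_MT_859, ALC_MT_866, RF6_MT_817, RF6_MT_897 and RF6_MT_899 (0.77 to 0.86 then, adjusted p up to 0.0739). Slc1a2 rose on fasting in Y657 mice from a median of 109 to 164 CPM (0.52, SE 0.20, adjusted p = 0.0402), a call lost without any of 8 of the 12 mice, that is all but ALC_MT_858, ALC_MT_859, ONF_MT_806 and ONF_MT_827 (0.37 to 0.53 then, adjusted p up to 0.15). Slc1a3 was not called, with a highest group mean of 0.888 CPM.

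In Slc6, the taurine carrier Slc6a6 fell on fasting and stayed low on refeeding in both genotypes. It was at 106 to 140 CPM in fed, 103 to 129 in fasted and 92.4 to 114 in refed wild-type mice, and at 145 to 165, 91.9 to 133 and 99.5 to 121 in Y657 mice. The log2 fold change on fasting was -0.24 (SE 0.08, adjusted p = 0.0147) and -0.55 (SE 0.08, adjusted p = 6.6e-07), and refed against fed it was -0.35 (adjusted p = 7.5e-04) and -0.50 (adjusted p = 7.3e-06). All fed Y657 mice lay above all fed wild-type mice, but that difference was not called (0.24). Slc6a6 shares exon bases with Gm44981 on the opposite strand. Slc6a13, the GABA and taurine carrier, was at 202 to 234 CPM in refed Y657 mice, above the 142 to 193 of fasted and the 156 to 199 of fed Y657 mice (0.37, adjusted p = 4.4e-04, and 0.25, adjusted p = 0.0198). The second of these was lost without RF6_MT_899 (0.22, adjusted p = 0.0531) or ALC_MT_866 (0.21, adjusted p = 0.059). In wild-type mice Slc6a13 fell on fasting (-0.22, adjusted p = 0.0329), a call lost without any of 7 of the 12 mice, that is all but ALC_WT_849, ONF_WT_824, ONF_WT_825, ONF_WT_918 and ONF_WT_919 (-0.22 to -0.18 then, adjusted p up to 0.0952). The betaine carrier Slc6a12 fell on fasting in Y657 mice, whose fed range was 65.3 to 71 CPM and fasted range 37.9 to 78.3 (-0.44, SE 0.12, adjusted p = 0.00565).

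The creatine carrier Slc6a8 was at a median of 3.62 CPM in fed, 5.51 in fasted and 3.92 in refed Y657 mice. Its rise on fasting (0.59, adjusted p = 0.041) was lost without any of 7 of the 12 mice, that is all but ALC_MT_858, ALC_MT_866, ONF_MT_806, ONF_MT_921 and ONF_MT_923 (0.39 to 0.61 then, adjusted p up to 0.189). Its fall on refeeding (-0.61, adjusted p = 0.0386) was lost without ONF_MT_827, ONF_MT_922, RF6_MT_814, RF6_MT_817, RF6_MT_897 or RF6_MT_899 (-0.60 to -0.40 then, adjusted p up to 0.179). Without ONF_MT_827, the highest at 10.1 CPM, they were 0.39 and -0.40. Slc6a18, a neutral amino acid carrier known from kidney, fell on refeeding in Y657 mice from a median of 1.24 to 0.593 CPM (-0.83, adjusted p = 0.039). It had 450 counts over the 36 libraries, and the dependence of this call on single mice is not reported here. Slc6a9, the glycine carrier, was not called and reached a group mean of 19.6 CPM. Its exons overlap B4galt2, Ccdc24 and Gm17114 on the opposite strand.

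In Slc43 all 3 members were tested, and each was called in some comparison of feeding states. Single comparisons of feeding states called 26.1% to 32.9% of all genes, and the share of all genes called in any of them was not counted. Slc43a3, the purine nucleobase carrier, was at 27.1 to 33 CPM in fed (median 28.9), 31.6 to 39.2 in fasted (median 36.7) and 18.7 to 28.3 in refed wild-type mice (median 26.6). In Y657 mice the ranges were 26.4 to 34.1, 31.8 to 44.3 and 20.6 to 30.6. It rose on fasting (0.27, adjusted p = 0.0237, and 0.38, adjusted p = 0.00144) and fell on refeeding (-0.52, adjusted p = 3.9e-05, and -0.61, adjusted p = 2.8e-06), and refed mice lay below all fasted mice of their genotype. The wild-type rise was lost without ONF_WT_920 (0.24, adjusted p = 0.0605) or ALC_WT_850 (0.24, adjusted p = 0.0577). Its fall in refed against fed wild-type mice (-0.25, adjusted p = 0.04) was lost without ALC_WT_847, ALC_WT_849, ALC_WT_860, RF6_WT_816 or RF6_WT_896 (-0.26 to -0.18 then, adjusted p up to 0.138). Over 6 endothelial markers the medians had the same signs, 0.21 on fasting and -0.26 on refeeding in wild-type and 0.15 and -0.40 in Y657 mice. Medians of Kupffer cell (0.47 and -0.20), lymphocyte (1.07 and -0.53) and erythroid markers (0.31 and -0.61) had these signs in wild-type mice alone. The other marker lists did not share both signs in either genotype, and the part of these markers was not tested.

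Slc43a2, the LAT4 uniporter of branched-chain and aromatic amino acids, fell on refeeding from a median of 20.9 to 12.9 CPM in wild-type mice (-0.55, SE 0.16, adjusted p = 0.00719) and from 21.8 to 13 in Y657 mice (-0.61, SE 0.16, adjusted p = 0.00278). Refed Y657 mice were also below fed ones (-0.70, adjusted p = 8.7e-04). Slc43a2 shares exon bases with Gm45606 on the opposite strand. Its relative Slc43a1 (LAT3) fell on fasting instead, from a median of 9.54 to 5.34 CPM in wild-type mice (-0.82, SE 0.24, adjusted p = 0.00775) and from 4.66 to 3.18 in Y657 mice (-0.66, SE 0.25, adjusted p = 0.0411). The Y657 call was lost without ALC_MT_858, ALC_MT_859, ALC_MT_866, ONF_MT_806, ONF_MT_921 or ONF_MT_923 (-0.68 to -0.51 then, adjusted p up to 0.117). In refed wild-type mice Slc43a1 remained at a median of 4.18 CPM (-1.14 against fed, SE 0.24, adjusted p = 4.8e-04).

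Genotype differences among the members were few, and the fed state gave 2. Slc1a2 and Slc43a1 were lower in Y657 mice, where 2.37% of all genes were called. Slc1a2, the glutamate carrier that liver makes around the central veins, was at 145 to 243 CPM in wild-type mice (median 193) and 72.9 to 162 in Y657 mice (median 109), a 1.79-fold difference with some overlap (log2 -0.84, SE 0.20, adjusted p = 0.0196). It was lower by -0.42 (adjusted p = 0.162) in fasted and -0.35 (adjusted p = 0.59) in refed Y657 mice, which were not called. Slc43a1 was at 5.86 to 13.5 CPM in wild-type and 4.16 to 7.44 in Y657 mice (log2 -0.87, SE 0.24, adjusted p = 0.0407), with -0.71 (adjusted p = 0.0575) when fasted and -0.36 when refed. The Slc1a2 call was lost without ALC_MT_866, ALC_MT_868, ALC_MT_869 or ALC_WT_847 (-0.82 to -0.75 then, adjusted p up to 0.07), and the Slc43a1 call without any of 10 of the 12 mice, that is all but ALC_MT_858 and ALC_WT_860 (-0.94 to -0.75 then, adjusted p up to 0.116).

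In the fed mice genotype nearly followed the mouse number. Both genotypes occurred only among 5 neighbouring numbers (ALC_WT_856, ALC_MT_857, ALC_MT_858, ALC_MT_859 and ALC_WT_860), and there the mean difference in log2 of CPM plus 0.5 was -0.51 for Slc1a2 and -0.41 for Slc43a1. With blocks of neighbouring numbers in the fit of fed mice the values were -0.54 (adjusted p = 0.947) and -0.43 (adjusted p = 0.996) by edgeR. With fed mice alone in the fit, neither member was called (adjusted p = 0.0763 and 0.0811). Beside these results, Kupffer cell markers summed to 181 to 256 CPM in fed wild-type and 171 to 633 in fed Y657 mice, with 0 of 6 called. Of 4 tested lymphocyte markers 2 were higher in fed Y657 mice, with sums over the 6 listed of 0.816 to 2.8 CPM in wild-type and 2.34 to 9.9 in Y657 mice, and 1 of 6 stellate cell markers was higher. The part of these markers in the results was not tested. Glul, glutamine synthetase, which is confined to the same pericentral hepatocytes as Slc1a2 and was singled out after its values were seen, was at 974 to 1066 CPM in fed wild-type and 480 to 1015 in fed Y657 mice. The fed difference of Glul was not called (-0.47, adjusted p = 0.166) and its fasted difference was (-0.77, SE 0.19, adjusted p = 0.00509). Oat, another enzyme of the nitrogen list, lay the other way in fed mice (0.39, adjusted p = 0.205), which was not called. In fasted mice Oat was lower in Y657 mice (-0.71, adjusted p = 0.00437). No list of pericentral genes was drawn up, and a shared change in them was not tested. Slc1a2 shares exon bases with Gm13872 on the opposite strand.

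In the fasted state 3 members differed, where 13.1% of all genes were called. Slc7a11, the light chain of the cystine and glutamate exchanger and a well-known ATF4 and NRF2 target, was at 0.922 to 1.68 CPM in wild-type and 1.88 to 3.08 in Y657 mice (medians 1.17 and 2.3), without overlap. The log2 difference was 0.96 (SE 0.25, adjusted p = 0.00853). These are low levels, from 783 counts over the 36 libraries. Slc38a6, a brain-enriched member of its family whose role in liver is little known, was at 59.6 to 74 CPM in wild-type and 68.1 to 111 in Y657 mice (0.39, SE 0.09, adjusted p = 0.00391). Slc38a3 was lower in Y657 mice, at the values given above (-0.48, SE 0.13, adjusted p = 0.0116). All 3 calls held without each mouse in turn and with the mouse number series in the fit. Within the lower-numbered series the differences were 0.62, 0.50 and -0.30 on the log2 scale for Slc7a11, Slc38a6 and Slc38a3, and within the higher-numbered series 0.86, 0.24 and -0.65 (3 against 3 mice each, log2 of CPM plus 0.5). Of the markers, 1 of 6 endothelial and 1 of 6 stellate cell markers were higher in fasted Y657 mice, and their part was not tested. In the refed state no member was called by edgeR or DESeq2, where 0.0287% of all genes were called, and 5 members had an unadjusted p under 0.05.

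**Figure D4:**
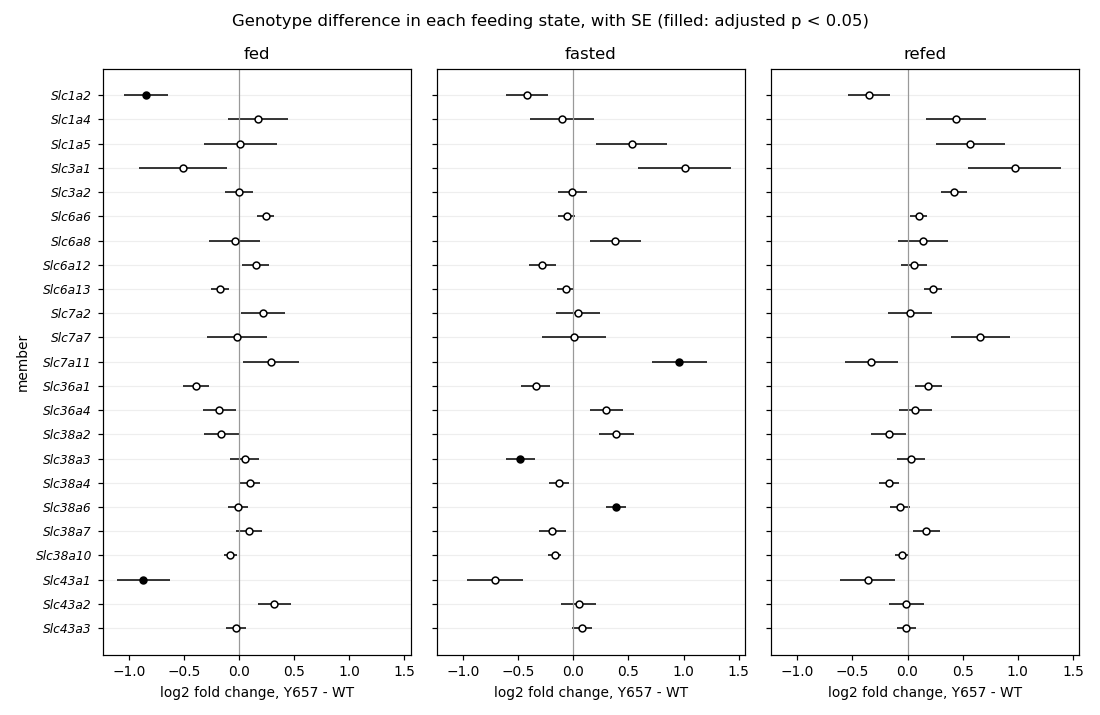
Log2 fold change of Y657 against wild-type mice with its standard error for the 23 members named with statistics, in fed, fasted and refed mice (n = 6 per group), filled where the adjusted p was under 0.05. Filled points are Slc1a2 and Slc43a1 when fed and Slc38a3, Slc38a6 and Slc7a11 when fasted.

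No member differed between genotypes in its fasting response by edgeR or DESeq2, where 4.35% of all genes did, although 7 had an unadjusted p under 0.05. In the refeeding response 2 members differed, where 2.06% of all genes did. Slc7a11 fell on refeeding in Y657 mice (-0.76, SE 0.24, adjusted p = 0.0148) and had a value of 0.53 in wild-type mice, a difference of -1.29 (SE 0.35, adjusted p = 0.0425). Its refed levels were 1.13 to 2.16 CPM in wild-type and 0.969 to 1.96 in Y657 mice, which overlap. Slc38a6 rose on fasting in both genotypes (0.25, adjusted p = 0.0352, and 0.64, adjusted p = 7.8e-07), the wild-type call lost without ALC_WT_848, ALC_WT_849, ONF_WT_807 or ONF_WT_920 (0.20 to 0.24 then, adjusted p up to 0.108). On refeeding it fell in Y657 mice to 49.9 to 63.3 CPM (-0.54, SE 0.09, adjusted p = 1.7e-05) and had a value of -0.07 in wild-type mice, a difference of -0.46 (SE 0.13, adjusted p = 0.0472). Within the lower and higher series the refeeding differences of Slc7a11 were -0.74 and -0.46 in Y657 and 0.20 and 0.57 in wild-type mice, and those of Slc38a6 -0.61 and -0.42 against -0.02 and -0.12. Both genotype differences lay close to the threshold. That of Slc7a11 was lost without any of 19 of the 24 mice, that is all but ONF_MT_921, ONF_MT_922, ONF_WT_807, RF6_MT_897 and RF6_WT_828 (-1.33 to -1.19 then, adjusted p up to 0.0852). That of Slc38a6 was lost without any of 17 of the 24 mice, that is all but ONF_MT_827, ONF_MT_921, ONF_MT_922, ONF_WT_920, RF6_MT_810, RF6_MT_897 and RF6_WT_896 (-0.49 to -0.37 then, adjusted p up to 0.113).

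Other genes of amino acid handling are given from 4 lists. Of 13 tested carriers and transport partners outside these families, 6 were called on fasting in wild-type and 3 in Y657 mice, and 7 on refeeding in each, where 32%, 32.9%, 30.2% and 31.3% of all genes were called. The mitochondrial glutamate carrier Slc25a22 rose on fasting by log2 1.28 and 1.33 (adjusted p = 2.4e-07 and 1.3e-07) and fell on refeeding by -1.41 and -1.24 in wild-type and Y657 mice. The branched-chain amino acid carrier Slc25a44 fell on fasting (-1.07 and -1.18) and rose on refeeding (0.47 and 0.55). The aromatic amino acid carrier Slc16a10 was lower in fed Y657 than in fed wild-type mice without overlap (-0.70, SE 0.11, adjusted p = 0.00133) and lower in fasted ones (-0.39, adjusted p = 0.0193). Between genotypes 2 of the 13 were called in fed and 3 in fasted mice, where 2.37% and 13.1% of all genes were called. In fed mice genotype nearly followed the mouse number, and with blocks of neighbouring numbers in the fit 0 genes were called. Of 23 tested ATF4 response genes, 12 were called on fasting in wild-type and 6 in Y657 mice, where 32% and 32.9% of all genes were called. Between genotypes 4 were called in fasted mice, 3 higher and 1 lower, where 13.1% of all genes were called. Atf4 itself rose on refeeding in both (0.38, adjusted p = 0.00968, and 0.66, adjusted p = 2.6e-05), and Atf5 rose on fasting (1.31 and 1.01). Ddit3 was higher in refed Y657 than in refed wild-type mice (1.37, SE 0.24, adjusted p = 0.0171), the 1 call of this list there, where 0.0287% of all genes were called. Its refed ranges overlapped, at 7.22 to 30.2 CPM (median 11.3) in Y657 and 5.31 to 8.54 (median 6.01) in wild-type mice.

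Of 31 enzymes of amino acid breakdown and nitrogen disposal, 14 were called on fasting in wild-type (10 higher) and 13 in Y657 mice (7 higher), where 32% (14.5% higher) and 32.9% (15.2% higher) of all genes were called. Oat, ornithine aminotransferase, rose on fasting in wild-type mice (1.39, SE 0.17, adjusted p = 6.0e-08) and had 0.29 in Y657 mice, and that difference was called (-1.11, SE 0.24, adjusted p = 0.00655). Tdo2, which opens the tryptophan ring, rose on fasting in both (0.46 and 0.80), and the urea cycle enzyme Otc fell in both (-0.31 and -0.66). Of 24 genes of lysosomal amino acid sensing to mTORC1, 7 were called on fasting in wild-type and 9 in Y657 mice, and 7 and 6 on refeeding, where 32%, 32.9%, 30.2% and 31.3% of all genes were called. The refeeding calls were 3 higher and 4 lower in wild-type and 3 higher and 3 lower in Y657 mice. Over all genes 16.5% were higher and 13.7% lower in wild-type mice, and 17.1% and 14.2% in Y657 mice. The list's median log2 fold change on refeeding was 0.05 and 0.12, beside 0.002 and -0.008 over all genes. Mtor fell on refeeding (-0.43, adjusted p = 1.3e-04, and -0.25, adjusted p = 0.018), as did Fnip1, a regulator of AMPK and mTORC1 (-0.47 and -0.62). Sesn3, a sestrin, was lower in refed than in fed mice of both genotypes (-0.98 and -0.70).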

How the data were processed

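Liver RNA from 36 mice was made into stranded total RNA libraries (TruSeq) and read as 50 bp single reads on an Illumina HiSeq. Groups and mouse numbers come from the labels, and sex and heterozygosity from the study's methods. The authors deposited estimated counts per gene, without normalization. The submitters' processing notes name Cuffdiff, SAMtools, featureCounts and edgeR and the build mm9, but 99.7% of 36341 gene loci in the table overlapped the same gene in GRCm38. Versions and strand setting are not given in the sources used here. Of counts above 0, 3.33% were not whole, and all were rounded.

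In R 4.3.3, edgeR 4.0.16 was used with filterByExpr, TMM scaling, glmQLFit (robust) with 1 coefficient per group over all libraries, and two-sided glmQLFTest for 11 comparisons, with Benjamini-Hochberg adjustment over 13945 genes and a threshold of 0.05. The common biological coefficient of variation was 0.181. CPM used TMM-scaled library sizes, and exon lengths came from GENCODE M21. Members were named with statistics if tested, called in at least 1 comparison and at a mean of at least 1 CPM (23 of 59), others with their highest group mean or by a count, and 3 genes per other list by smallest p. Slc7a4 and Slc6a18 fall outside this rule and were chosen after their values were seen, as was Glul. The members and lists were chosen with earlier results of these data known. Of the listed genes, 3 were not found in the table. Mice of a group differed beyond counting noise in all 90 pairs (chi-square per degree of freedom of at least 6.54). The tests were checked on simulated data. Alternatives were the likelihood ratio test, DESeq2 1.42.0, other scalings, other filters, fits to fewer groups, mouse number terms and leaving out each mouse. Not every untested member is reported by name here. A second table of fitted values per condition was not used.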

Additional observations from a re-analysis of the deposited data

Results flagged for a closer look

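In the 23 members named with statistics, the highest or lowest mouse of each group of 6 was compared with the rest by Dixon's ratio, and 9 of 138 groups passed the 95% critical value. Chance alone flags about 1 group in 20.

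In fed wild-type mice, a lone mouse lay apart in Slc6a6 (lowest, 106 CPM), Slc6a13 (lowest, 182), Slc43a2 (lowest, 13.8) and Slc7a11 (highest, 2.91). In fasted wild-type mice, the highest values of Slc3a1 (59.1 CPM) and Slc38a10 (135) lay apart. In Y657 mice, single high values lay apart in Slc36a4 when fed (17.4 CPM), in Slc1a4 when fasted (6.88) and in Slc7a7 when refed (9.5).

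The refeeding response differed between genotypes by the interaction term of the edgeR fit for Slc7a11 (log2 difference -1.29) and Slc38a6 (-0.46), Y657 less wild-type response.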

How the results depend on the processing

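The 70 calls of named members kept their direction under every alternative run, and 42 also stayed under the threshold throughout. Calls were lost for 27 without some 1 mouse, for 18 without a filter on low counts (where more genes are tested), for 13 with only the groups compared, for 11 with scaling by library size alone, for 2 each with the likelihood ratio test, median-ratio size factors and the mouse number series, for 2 with blocks of fed mouse numbers and for 1 with DESeq2. In the fed genotype comparison the 2 calls became 1 without a filter, 0 with only the groups compared, 0 with blocks of neighbouring mouse numbers and 4 by DESeq2. In the fasted genotype comparison the 3 became 5 with the mouse number series and 5 by DESeq2. For the genotype difference in the fasting response, scaling by library size alone gave 1 call. For that in the refeeding response, the 2 became 1 with median-ratio size factors, 0 with library size alone and 0 without a filter. Apart from the filter, the cause of these changes was not tested.

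Without each mouse in turn, calls ranged from 0 to 4 (genotype fed), 3 to 5 (fasted), 0 to 0 (refed), 7 to 11 and 10 to 13 (fasting in wild-type and Y657 mice), 5 to 6 and 12 to 16 (refeeding), 7 to 11 and 9 to 12 (refed against fed), 0 to 2 (genotype difference in fasting) and 0 to 2 (in refeeding). The counts that moved by over 1.5 times were 7 on fasting in wild-type mice without ONF_WT_920, 5 for genotype fasted without ONF_WT_807, ONF_MT_921 or ONF_MT_922, 0 for genotype fed without ALC_WT_847, ALC_MT_866, ALC_MT_868 or ALC_MT_869, 4 there without ALC_MT_858 or ALC_WT_860, 1 there without ALC_WT_848, ALC_WT_849, ALC_WT_850, ALC_WT_856 or ALC_MT_859, and 1 or 2 for the genotype difference in fasting without ONF_WT_807, ALC_WT_849, ONF_WT_920, ONF_MT_827, ONF_MT_921 or ONF_MT_922. The mice that decide the refeeding differences of Slc7a11 and Slc38a6 are named beside those values. Over all genes, the fed genotype count of 330 became 516 by the likelihood ratio test, 756 by library size, 207 without a filter, 30 with only the groups compared, 0 with blocks and 621 by DESeq2. The refed count of 4 became 18, 24 and 12 by the likelihood ratio test, DESeq2 and the mouse number series. Without a filter, the fasting and refeeding differences went from 607 to 386 and from 287 to 152. Library size alone shifted the median of all genes by 0.108 in the fed genotype comparison, and the higher share of calls there from 51.2% to 88.9%, when fasted from 49.2% to 64.4%, when refed from 75% to 100%, on fasting in Y657 mice from 46.2% to 36%, on refeeding from 54.5% to 68.3% and from 54.7% to 73.1%, refed against fed from 48.1% to 65.7% and from 49.7% to 61.5%, and for the genotype differences from 59.5% to 34.2% and from 28.9% to 39.8%.

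No paired analysis was possible because the groups compared share no mouse number. The 24 members under the filter on low counts are given by their levels, with no statement on differences, and calls of members near 1 CPM, such as Slc7a11, rest on few counts too.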

Other observations

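Within the Y657 groups, Slc3a1 and Glul, which encodes glutamine synthetase, were spread so that the mice high in Slc3a1 were those low in Glul. This was noticed in the data and is given as values without a test. In fasted Y657 mice, ONF_MT_806, ONF_MT_827 and ONF_MT_922 had 115, 92.8 and 69.6 CPM of Slc3a1 and 363, 363 and 467 of Glul, while ONF_MT_826, ONF_MT_921 and ONF_MT_923 had 25.5, 31.2 and 28.5 of Slc3a1 and 722, 833 and 710 of Glul. In refed Y657 mice, RF6_MT_810 and RF6_MT_898 had 82.3 and 146 CPM of Slc3a1 and 510 and 492 of Glul, against 22.6 to 39.6 and 724 to 944 in the other 4. In fed Y657 mice, ALC_MT_866, ALC_MT_868 and ALC_MT_869 had 132, 92.3 and 87.5 CPM of Slc3a1 and 523, 590 and 480 of Glul, and ALC_MT_857, ALC_MT_858 and ALC_MT_859 had 49.7, 74 and 56.6 of Slc3a1 and 870, 981 and 1015 of Glul. The split of the fed mice is also that between their higher and lower mouse numbers, from which it cannot be told apart. In wild-type mice Glul was at 1029 ± 34.9 CPM (SD, n = 6) when fed, 984 ± 66.9 when fasted and 974 ± 86.7 when refed.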
